A study of Mus musculus with 14 samples.

Results

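Short lincRNA regions are the regions of long intergenic noncoding RNA on the array that span less than 10000 bases from start to end. The scanner files name each such region by chromosome, start, end and strand, and the regions were chosen from these names alone, with no measured value. There were 2199 short regions, at 1964 distinct coordinates, among 4602 lincRNA regions on the array. They were covered by 6584 of the 16115 lincRNA probes, and the value table holds 55482 noncontrol probes in all. Of the longer regions, 1855 span 10 to 50 kb, with 7145 probes, and 548 span 50 kb or more, with 2386 probes, so they carry more probes per region. The short regions were 61 to 9986 bases long with a median of 1502, and 1122 lie on the forward and 1077 on the reverse strand. Most had 3 probes (1264 regions), 310 had 1 probe, and none had more than 10. Positions are on mm9, per the file headers. Gene and exon annotation and the sequences of probes and regions were not used here, so each region is given by its coordinates, strand and length.

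Long intergenic noncoding RNAs are transcripts that lie between protein-coding genes and are not translated into protein. Many are made by RNA polymerase II, spliced and polyadenylated like messenger RNAs, and they are on the whole less abundant than messenger RNAs and limited to fewer cell types. In the heart, some long noncoding RNAs are known to act in cardiomyocyte growth, in fibrosis and in the response to injury, but most intergenic regions on such an array have no known function.

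The study asked how the ventricle changes after a myocardial infarction (MI), the death of heart muscle after its blood supply is cut. Male c57BL/6 mice aged 8 weeks had the left anterior descending coronary artery tied off permanently, or had the same operation without the tie (sham), and carried no engineered allele according to the labels. RNA came from the border zone of the ventricle, the tissue next to the infarct, 3 or 14 days after the tie, and each sample was hybridised to its own 1-colour Agilent array. There were 4 sham arrays, 5 arrays of MI 3 days and 5 of MI 14 days, and the labels list the arrays of a group as separate replicates. The design text speaks of 10 ligated and 5 sham-operated mice, does not say when the sham hearts were taken, and 4 sham arrays were analysed here. The protocols name both a poly-T purification and a labelling step that started from 200 ng of total RNA. Which RNA was labelled is therefore not settled, which bears on noncoding RNA without a poly-A tail.

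All levels are log2 intensity minus the array's own 75th percentile, so a level of 0 is as bright as the probe at that percentile. The percentile itself lay between 188.6 and 443 intensity units. Detection flags were at hand for the 10 arrays with scanner output (4 sham, 2 MI 3 days, 4 MI 14 days). Correlations between arrays of a group, across probes, were 0.979 to 0.992, and probes are not independent replicates. MI 14 days replicate 3 stood apart from its group, with a mean correlation of 0.981 and a second principal component of -76.2 against -41.5 for the next lowest array. Results that rest on it are given with and without it.

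Short regions were dim. On the scanner arrays 35.9% to 52.9% of their probes were well above background, against 54.8% to 66.1% of all probes. A region could be tested when at least 1 of its probes was flagged as detected, that is well above background, throughout the scanner arrays of some group. That left 1409 regions (64.1%) with 2690 probes, against 70.3% of the regions of 10 to 50 kb and 74.3% of those over 50 kb. Longer regions carry more probes and 1 detected probe sufficed, so these shares are not matched for the number of probes. The other 790 short regions were not tested. A region is represented by its tested probe with the highest mean level. This probe was fully detected in all 3 groups in 1094 regions, through sham alone in 80, through MI 3 days alone in 57 and through MI 14 days alone in 15. The median level over the 1409 regions was -2.0 to -1.83 on the sham arrays, -2.33 to -2.14 at MI 3 days and -2.09 to -1.83 at MI 14 days, so every MI 3 days array lay below every sham array.

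Of the 6 brightest short regions, by the mean over all arrays, 3 passed the test below at 3 days. At chr19:5801802-5802597 (reverse strand, 795 bases, 3 probes) the level was 9.31, 9.69, 9.47 and 9.62 in sham, 9.36, 9.43, 9.34, 9.39 and 9.39 at MI 3 days, and 9.62, 9.50, 9.80, 9.71 and 10.01 at MI 14 days. The groups overlapped with sham, and MI 14 days lay above MI 3 days on every array. The change at MI 3 days was -0.14 ± 0.11 (adjusted p = 0.261), and 0.31 under quantile normalization (adjusted p = 0.00743), so its direction depends on the scaling. Two-sided tests here and below are from limma with Benjamini-Hochberg adjustment over all 32257 tested probes, changes are log2 fold changes ± SE, and the threshold is an adjusted p of 0.05. chr7:108209996-108216032 (reverse strand, 6036 bases, 1 probe) also turned with the scaling, with -0.07 ± 0.08 (adjusted p = 0.489) and 0.18 under quantile normalization (adjusted p = 0.021). chr2:31714946-31716972 (forward strand, 2026 bases) was at 7.66 ± 0.10 in sham (SD, n = 4), 7.57 ± 0.20 at MI 3 days (n = 5) and 7.73 ± 0.21 at MI 14 days (n = 5), and its groups overlapped.

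Among these bright regions, chr4:33364774-33364898 (reverse strand, 124 bases, 1 probe) was lower at both times. It was at 8.14, 8.24, 8.22 and 8.38 in sham and at 7.20, 7.07, 6.64, 6.99 and 7.18 at MI 3 days, a change of -1.23 ± 0.14 (adjusted p = 4.51e-06). At MI 14 days it was at 7.65, 7.73, 7.40, 7.68 and 8.15, a change of -0.52 ± 0.14 (adjusted p = 0.0131), and replicate 5 reached the sham range. chr17:17481706-17482457 (reverse strand, 751 bases) was likewise lower at both times, by -0.42 ± 0.09 at 3 days (adjusted p = 0.00118, and 0.0517 with the slide as a block) and -0.38 ± 0.09 at 14 days (adjusted p = 0.00684), with no overlap with sham. chr17:39982023-39983277 (forward strand, 1254 bases) was higher at 3 days, by 0.43 ± 0.13 for the brightest probe (adjusted p = 0.0114, and 0.132 with the slide as a block) and by up to 1.04 for the other 2. The region 625 bases further on the same strand, chr17:39983902-39985688, was also higher at 3 days (0.96, adjusted p = 4.64e-06) and not past the threshold at 14 days (0.03, adjusted p = 0.88). On the opposite strand chr17:39979941-39981793 and chr17:39980973-39981876, 230 and 147 bases away, were higher at 3 days too (0.87 and 0.45, adjusted p = 1.41e-06 and 0.0014).

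The first comparison, MI 3 days against sham, describes the early response. More short regions were lower than higher. By the brightest probe, 618 regions were lower (43.9%, against 39.7% of all tested probes) and 150 were higher (10.6%, against 25.5%). The median change was -0.37, beside -0.19 over all tested probes, -0.36 over lincRNA regions of 10 to 50 kb and -0.30 over those of 50 kb or more. Longer lincRNA regions had values close to these, with 9.97% higher and 44.9% lower at 10 to 50 kb and 9.83% higher and 42.3% lower at 50 kb or more. Changes of at least 2-fold were counted in 195 regions downward (13.8%, against 14.0% of all tested probes) and in 58 upward (4.12%, against 10.7%). In 604 regions (42.9%, against 56.8% of all tested probes) the arrays of the groups did not overlap. Of the 1150 regions fully detected in both groups, 511 were lower and 112 higher, and the like share of all probes was not worked out.

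**Figure D1:**
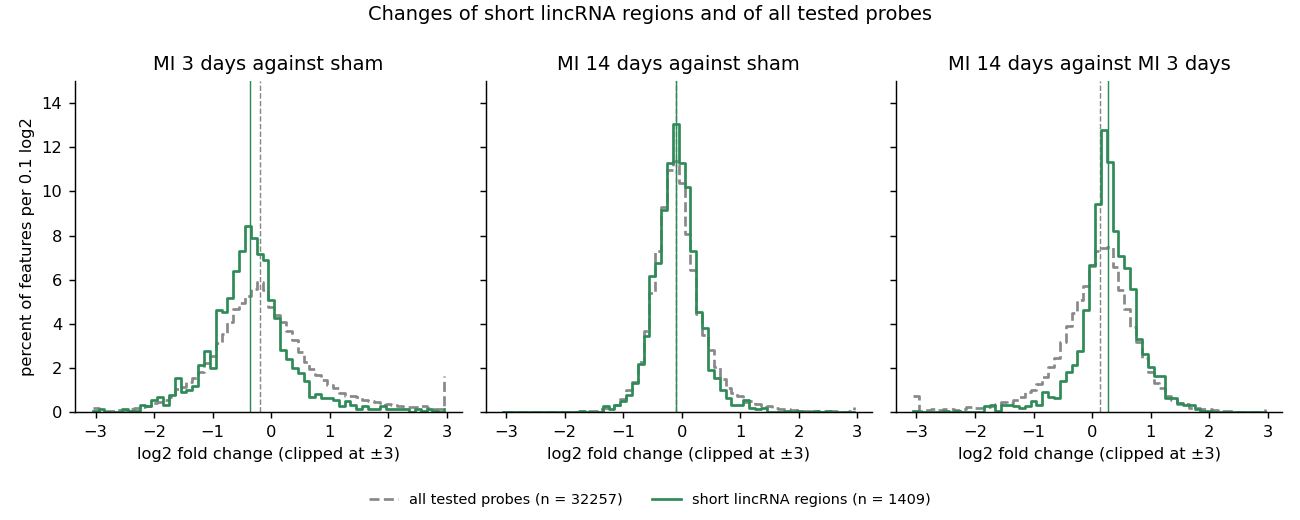
Distribution of log2 fold changes in the 3 comparisons, as percent of features per 0.1 log2, for the 1409 tested short lincRNA regions (solid, by their brightest probe) and all 32257 tested probes (dashed); vertical lines are medians and values beyond 3 are put at that value. At 3 days the regions' median lies at -0.37 and that of all probes at -0.19, while at 14 days both lie at -0.09.

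Higher regions made up 19.5% of the short regions past the threshold at 3 days, and 31.2% when arrays were scaled by their median, which moves the median of all probes by 0.18. With slide blocks on the scanner arrays 93 regions were higher, and with normexp background correction 63. Both fits rest on the 10 scanner arrays, 2 of them of MI 3 days. Their lower counts and the shares of all tested probes under them are not given here. These counts alone therefore do not show whether the balance of the directions changed. Sham and MI 3 days shared 2 slides with 1 array of each group on them. There 99.5% and 98.7% of the regions past the threshold had the same direction, which is a description, since those arrays took part in the calls.

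Cell-type markers moved at the same time. All 6 ventricular cardiomyocyte genes (Myh6, Tnnt2, Myl2, Actc1, Ttn and Ryr2) were lower at 3 days, and their summed level was 11.99 to 12.38 in sham and 11.35 to 11.67 at MI 3 days. The 3 atrial genes Myl7, Myl4 and Sln were lower too, with 2.28 to 4.88 in sham and 0.56 to 1.19 at MI 3 days. All 5 matched monocyte and macrophage genes (Cd68 had no match), all 4 neutrophil genes and all 4 fibroblast and matrix genes were higher. The neutrophil sum went from 1.22 to 2.64 in sham to 4.36 to 6.33 at MI 3 days, and returned to 0.85 to 3.16 at MI 14 days. The macrophage sum was 5.32 to 5.69, 6.34 to 7.13 and 5.62 to 6.11, and the matrix sum 5.71 to 6.15, 8.35 to 8.83 and 8.03 to 8.78, in sham, MI 3 days and MI 14 days. Il1r2 was the only gene of these lists above background on no scanner array of sham and of MI 14 days. The part of these shifts in the regions' changes was not tested, and in whole tissue fewer cells of a type and less RNA per cell cannot be told apart.

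Among regions whose probes all rose, the top by the median of its probes at 3 days was chr17:34018371-34019394 (reverse strand, 1023 bases, 3 probes). Its level was -1.76, -2.53, -4.49 and -1.93 in sham, -0.70, -0.02, -0.36, 0.33 and -0.20 at MI 3 days, and -3.87, -2.86, -1.90, -2.40 and -2.48 at MI 14 days. All 5 MI 3 days arrays lay above all others, and sham and MI 14 days overlapped. The change was 2.49 ± 0.50 at 3 days (adjusted p = 0.000587) and -0.03 ± 0.50 at 14 days (adjusted p = 0.976), and the 3 probes ranged from 2.23 to 3.25 at 3 days. The same course, up at 3 days only, was seen at chr6:116123643-116124550 (forward strand, 907 bases, 3 probes), a bright region. It was at 4.85, 4.75, 4.58 and 4.69 in sham, at 6.04, 6.20, 6.06, 6.21 and 6.22 at MI 3 days, and at 4.50, 4.58, 5.00, 4.70 and 4.65 at MI 14 days. The change of 1.43 ± 0.10 at 3 days (adjusted p = 4.81e-08) had no counterpart at 14 days, with -0.03 ± 0.10 (adjusted p = 0.83).

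Reverse-strand regions on chromosome 2 rose together. At chr2:128142035-128142481 (446 bases, 3 probes) the level was -3.79, -4.13, -4.42 and -3.19 in sham, -1.97, -1.90, -1.65, -1.72 and -1.90 at MI 3 days, and -3.84, -4.36, -3.43, -2.83 and -3.46 at MI 14 days. The MI 3 days arrays stood above both other groups, which overlapped, and the change was 2.06 ± 0.28 (adjusted p = 1.69e-05). The region that ends 300 bases before it, chr2:128137419-128141735, rose by 1.25 (adjusted p = 2.39e-07). Further along, chr2:128211990-128215223 (3233 bases, 3 probes) was at 0.60, 0.56, 0.50 and 0.67 in sham and at 2.14, 2.60, 2.43, 2.17 and 2.15 at MI 3 days, a change of 1.72 ± 0.13 (adjusted p = 8.35e-08). At 2052 bases from it, chr2:128217275-128217972 (697 bases, 3 probes) rose by 1.60 ± 0.11 (adjusted p = 5.16e-08), with its probes between 1.60 and 2.17. At 14 days the last 2 regions were still above sham by 0.37 each (adjusted p = 0.0416 and 0.0244), with overlapping arrays. Close neighbours are not independent, since probes may read the same transcript.

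Other regions with all probes higher at 3 days were chr6:4841700-4847400 (reverse strand, 2 probes), chr5:137411861-137413010 (forward strand, 2 probes) and chr17:95158347-95160942 (forward strand, 2 of 3 probes tested). The first was at -0.58, -0.68, -0.66 and -0.32 in sham and at 0.93, 1.10, 2.01, 1.20 and 1.07 at MI 3 days (1.82 ± 0.19, adjusted p = 1.36e-06), with replicate 3 the highest. The second was at -3.07, -3.60, -4.46 and -3.39 in sham and at -1.86, -1.52, -2.07, -1.55 and -1.29 at MI 3 days (1.97 ± 0.23, adjusted p = 4.4e-06). It remained above sham at 14 days, with -2.32, -2.54, -2.40, -2.32 and -2.47 and a change of 1.22 ± 0.23 (adjusted p = 0.00148). In the last region the brightest probe changed by 1.24 ± 0.25 (adjusted p = 0.000546, and 0.434 with normexp). The other tested one was above background on no sham scanner array and was at least 1.63-fold higher, a lower bound against a floor for sham.

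**Figure D2:**
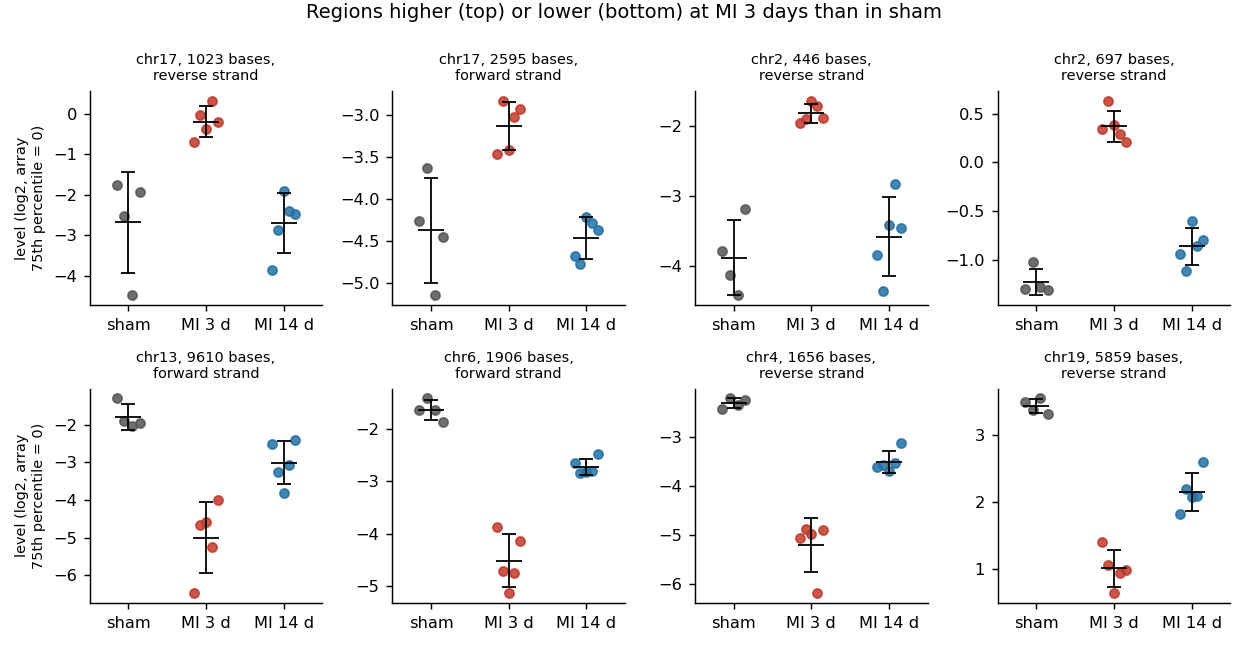
Level on each array (log2, array 75th percentile at 0; each panel has its own axis) of 4 regions higher and 4 regions lower at MI 3 days than in sham; points are arrays, bars are mean ± SD with n = 4, 5 and 5. In all 8 panels the MI 3 days arrays do not overlap with sham, and in the lower row the MI 14 days arrays lie between.

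Regions with a single tested probe gave some of the largest values, with no second probe to compare. The highest was chr5:35893909-35899497 (forward strand, 5588 bases), the largest rise of any tested short region at 3 days. It was at -3.27, -2.48, -3.89 and -3.87 in sham, -0.54, 0.44, -0.38, -0.11 and -0.26 at MI 3 days and -3.32, -3.80, -4.35, -4.04 and -3.80 at MI 14 days. The 5 MI 3 days arrays stood far above the rest, with a change of 3.21 ± 0.29 (adjusted p = 4.24e-07) and then of -3.69 ± 0.27 between the times (adjusted p = 1.76e-07). chr6:134879009-134880130 (forward strand, 1121 bases) rose by 2.57 ± 0.22 at 3 days (adjusted p = 2.71e-07) and was 1.37 ± 0.22 above sham at 14 days (adjusted p = 0.000576). chr4:114585803-114588898 (forward strand, 3095 bases) rose by 2.54 ± 0.12 (adjusted p = 1.95e-09) and 1.05 ± 0.12 (adjusted p = 4.82e-05), and no array of either MI group overlapped with sham in these last 2 regions.

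Where no sham scanner array had the probe well above background, the rise is a lower bound. The bound compares the mean of all MI arrays with a floor for sham. On each sham scanner array the floor is the dimmest signal of any detected probe, or the probe's own signal where that is brighter. By this bound chr5:31883451-31884082 (forward strand, 631 bases, 1 probe) was at least 3.97-fold higher at MI 3 days, with means of -4.59 in sham and -2.32 at MI 3 days (adjusted p = 2.49e-05). chr5:44173484-44176009 (forward strand, 2 tested probes) was at least 2.85-fold higher (-4.68 and -2.82, adjusted p = 8.42e-05), and chr6:149232359-149235295 (reverse strand) at least 2.69-fold (-4.80 and -2.87, adjusted p = 0.000207). For chr10:118427606-118430070 (reverse strand, 2464 bases) the bound was at least 2.16-fold at 3 days, with means of -6.20 and -3.24 (adjusted p = 5.26e-06), and it was above background on no scanner array of MI 14 days either. With normexp the 3-day changes of chr5:31883451-31884082 and chr5:44173484-44176009 were 0.40 and 0.17, with the calls lost (adjusted p = 0.0767 and 0.277). On the same scale, these changes are smaller than the bounds, so each bound in the text holds only for the main processing. Normexp was run with an offset of 50 added to every signal, which draws log2 changes of dim probes toward 0. A call lost with normexp in a dim region therefore does not show that the change is absent. In all, 19 tested regions had a brightest probe above background on no sham scanner array. Such regions could enter the test only through an MI group.

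Among regions whose probes all fell at 3 days, chr13:113555055-113564665 (forward strand, 9610 bases, 3 probes) had the lowest median. It was at -1.30, -1.90, -2.04 and -1.96 in sham, -6.48, -4.67, -4.59, -5.25 and -4.01 at MI 3 days and -2.50, -3.26, -3.81, -3.06 and -2.41 at MI 14 days. No array of either MI group reached the sham range. The change was -3.20 ± 0.42 at 3 days (adjusted p = 1.33e-05) and -1.21 ± 0.42 at 14 days (adjusted p = 0.0399). The 14-day call was lost in 10 of the alternatives, with an adjusted p of up to 0.111. Without MI 14 days replicate 3 the 14-day change was -1.01 (adjusted p = 0.0948). chr6:93029101-93031007 (forward strand, 1906 bases, 3 probes) was at -1.63, -1.41, -1.63 and -1.86 in sham, -3.87, -4.71, -5.14, -4.75 and -4.14 at MI 3 days and -2.65, -2.85, -2.83, -2.81 and -2.48 at MI 14 days. The 3 groups did not overlap, and the changes were -2.89 ± 0.21 (adjusted p = 6.19e-08) and -1.09 ± 0.21 (adjusted p = 0.00176).

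The same order, sham above MI 14 days above MI 3 days with no overlap, was seen in further regions. chr4:148119487-148121143 (reverse strand, 1656 bases, 3 probes) was at -2.43, -2.23, -2.37 and -2.26 in sham, -5.07, -4.88, -4.98, -6.18 and -4.91 at MI 3 days and -3.62, -3.58, -3.71, -3.53 and -3.13 at MI 14 days (-2.88 ± 0.23 and -1.19 ± 0.23, adjusted p = 1.17e-07 and 0.00153). chr19:56815544-56821403 (reverse strand, 5859 bases, 3 probes) was brighter, at 3.48, 3.37, 3.54 and 3.30, then 1.41, 1.06, 0.64, 0.94 and 0.99, then 1.81, 2.20, 2.07, 2.09 and 2.59. Its 3 probes were nearly equal in change, from -2.45 to -2.39 at 3 days and from -1.27 to -1.20 at 14 days, and the adjusted p of the brightest was 2.54e-08 and 9.02e-05. chr6:126768864-126769326 (reverse strand, 462 bases, 3 probes) was at 2.31, 2.04, 1.72 and 2.22, then -0.14, -0.24, -0.27, -0.19 and 0.00, then 1.09, 1.06, 0.65, 1.0 and 1.40. The changes were -2.24 ± 0.14 at 3 days (adjusted p = 2.27e-08) and -1.03 ± 0.14 at 14 days (adjusted p = 0.000214). It lies within chr6:126766225-126771309 on the same strand, whose brightest of 5 tested probes fell by 2.0 (adjusted p = 3.75e-08), while the 2 tested probes of the opposite strand were led by one at 0.01 (adjusted p = 0.96).

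In chr2:174852887-174853961 (forward strand, 1074 bases, 3 probes) all probes fell at 3 days but by unequal amounts, from -2.74 to -1.16, with the brightest probe the least. Of regions with 1 tested probe, chr15:102926581-102932542 (reverse strand, 5961 bases) fell most among those measured on both sides, by 2.47 ± 0.35 (adjusted p = 2.52e-05). It was at -2.79, -2.74, -2.89 and -3.42 in sham and at -6.31, -5.60, -4.87, -5.93 and -4.47 at MI 3 days, with no overlap. chr9:24307857-24309318 (forward strand, 1461 bases) fell by 2.27 ± 0.20 (adjusted p = 3.18e-07). At background at MI 3 days, chr3:117995784-117996372 (forward strand, 588 bases, 1 tested probe) was at least 2.71-fold lower than sham (means -3.22 and -5.15, adjusted p = 0.000453) and at 14 days at least 1.88-fold lower (mean -4.93, adjusted p = 0.00367, and 0.210 with normexp). For MI 3 days this rests on the flags of 2 arrays. Likewise chr4:132641388-132645061 (forward strand, 3673 bases) was at least 2.26-fold lower at 3 days (means -3.59 and -5.31, adjusted p = 0.000987). The probe of each was above background on no scanner array of either MI group, so it could enter the test only through sham.

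The second comparison, MI 14 days against sham, describes the later state. Fewer short regions differed from sham than at 3 days. By the brightest probe 99 were higher (7.03%, against 12.8% of all tested probes) and 167 lower (11.9%, against 19.8%). The median change was -0.09, the same as over all tested probes, and -0.12 over the longer lincRNA regions of both classes. At 10 to 50 kb 5.83% were higher and 13.7% lower, and at 50 kb or more 8.35% and 10.8%. Changes of at least 2-fold numbered 22 upward (1.56%, against 3.46%) and 15 downward (1.06%, against 1.34%), and in 208 regions (14.8%, against 27.4%) the arrays did not overlap. Of the 1170 regions fully detected in both groups, 83 were higher and 155 lower, again without a like share of all probes. Higher regions were 37.2% of those past the threshold but 54.2% when the 75th percentile was taken over the tested probes, so which direction prevailed at 14 days depends on the scaling. Without sham replicate 2 the lower regions numbered 111, and with the slide as a block 49 were higher and 85 lower. Like shares of all tested probes are not given here for these settings. Ventricular cardiomyocyte markers were lower in 2 of 6 cases at this time, matrix markers were higher in all 4 and macrophage markers in 2 of 5. All 3 atrial genes were lower than sham (Myl7 by -3.43, Myl4 by -1.99 and Sln by -3.82), with a summed level of 0.99 to 2.55. Their part in the regions' changes was not tested.

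The highest median over probes at 14 days was at chr18:63525907-63526504 (reverse strand, 597 bases, 3 probes). It was at -4.01, -3.73, -3.55 and -3.48 in sham, -2.54, -1.38, -2.22, -2.0 and -1.58 at MI 3 days and -1.60, -1.61, -0.95, -1.55 and -2.58 at MI 14 days. Both MI groups lay above sham and overlapped with each other. The brightest probe rose by 1.75 ± 0.29 at 3 days (adjusted p = 0.000115) and 2.03 ± 0.29 at 14 days (adjusted p = 0.000241), and the smallest change of the 3 probes was 1.51 at 14 days. Another probe was above background on no sham scanner array and was at least 3.24-fold higher at 14 days. At 45008 bases from it on the same strand, chr18:63480341-63480899 was also above sham at both times, by 0.90 (adjusted p = 0.0259) and 1.39 (adjusted p = 0.00549). chr15:32167516-32174427 (reverse strand, 6911 bases, 5 probes) was likewise up at both times and level between them. It was at 0.99, 0.81, 0.83 and 1.16 in sham, 1.58, 1.73, 1.99, 2.07 and 1.95 at MI 3 days and 1.75, 1.87, 2.32, 1.98 and 1.60 at MI 14 days. Its 5 probes rose by 0.90 to 1.01 at 3 days and by 0.91 to 1.17 at 14 days, and the brightest had 0.04 ± 0.14 between the times (adjusted p = 0.817).

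Other regions were higher at 14 days than in both other groups. chr6:148161888-148163095 (reverse strand, 1207 bases, 2 probes) was at -3.69, -3.31, -3.68 and -4.38 in sham, -4.19, -4.18, -4.52, -3.97 and -3.35 at MI 3 days and -2.24, -2.13, -2.88, -2.25 and -2.78 at MI 14 days. Sham and MI 3 days overlapped, and every MI 14 days array was above both (1.30 ± 0.25 against sham, adjusted p = 0.00176, and 1.59 ± 0.24 against MI 3 days, adjusted p = 7.78e-05). chr2:67411703-67412293 (forward strand, 590 bases, 3 probes) was at -1.94, -1.91, -2.12 and -1.90, then -1.64, -1.63, -1.96, -1.46 and -1.52, then -1.06, -0.93, -0.17, -0.67 and -1.0. MI 14 days replicate 3 was its highest array, and the change without that array was 1.05 (adjusted p = 7.26e-05). With it the change was 1.20 ± 0.16 against sham (adjusted p = 0.000173) and 0.88 ± 0.15 between the times (adjusted p = 0.000286). chr17:3346621-3347209 (forward strand, 588 bases, 3 probes) rose by 1.03 ± 0.15 at 14 days (adjusted p = 0.00027), with its probes between 1.03 and 1.38, and by 0.37 ± 0.15 at 3 days (adjusted p = 0.041), where its arrays overlapped with sham. In chr12:110894095-110899517 (forward strand, 5422 bases, 2 probes) the rise was larger at 3 days (1.77 ± 0.19, adjusted p = 1.65e-06) than at 14 days (1.02 ± 0.19, adjusted p = 0.00119), and the fall between the times was past it too (-0.75 ± 0.17, adjusted p = 0.00244).

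**Figure D3:**
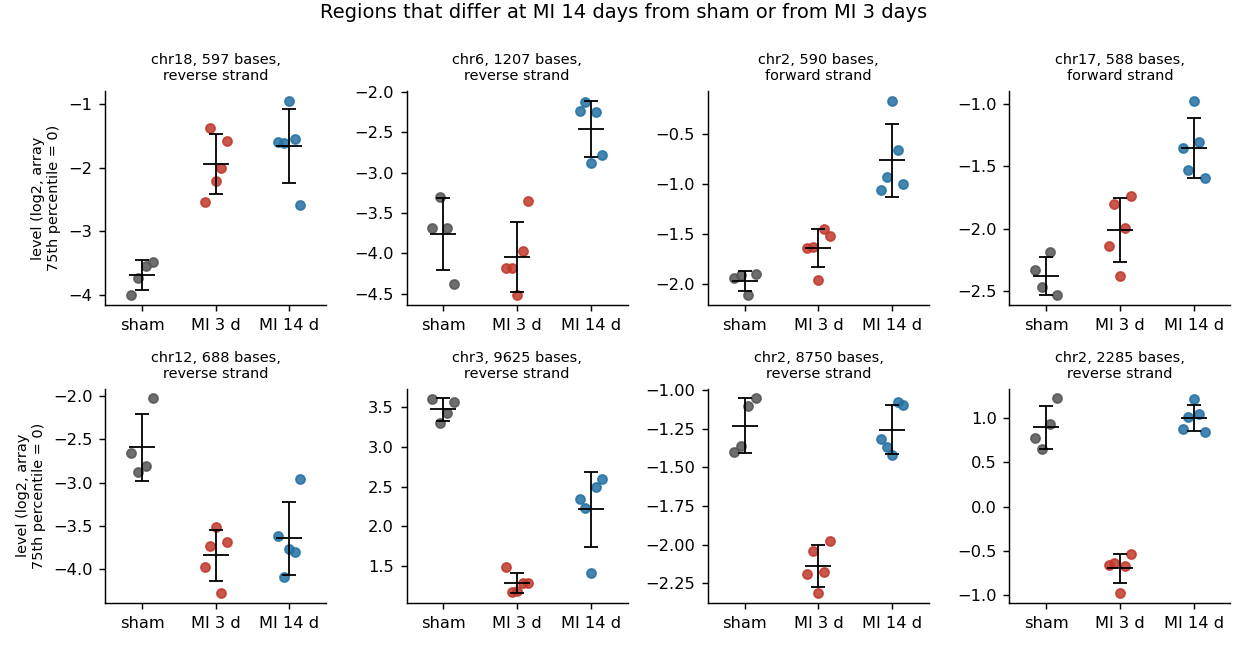
Level on each array (log2, array 75th percentile at 0; each panel has its own axis) of 8 regions named for a difference at MI 14 days from sham or from MI 3 days; points are arrays, bars are mean ± SD with n = 4, 5 and 5. In the top row the MI 14 days arrays lie above sham, and MI 14 days replicate 3 is the single low point at 1.41 in the panel of the 9625-base region.

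Among regions lower at 14 days with all probes past the threshold, chr3:21964899-21974524 (reverse strand, 9625 bases, 5 probes) was bright. It was at 3.60, 3.29, 3.42 and 3.56 in sham, 1.48, 1.18, 1.18, 1.29 and 1.28 at MI 3 days and 2.34, 2.22, 1.41, 2.49 and 2.60 at MI 14 days. MI 14 days replicate 3 alone fell into the MI 3 days range, and no MI array reached sham; without that array the 14-day change was -1.06. Its 5 probes fell by -2.23 to -2.04 at 3 days and by -1.32 to -1.10 at 14 days (brightest probe -2.19 ± 0.19 and -1.26 ± 0.19, adjusted p = 3.01e-07 and 0.000374). chr3:21973306-21974266, which overlaps it on the same strand and has 1 probe of its own, had nearly the same changes (-2.17 ± 0.14 and -1.30 ± 0.14, adjusted p = 2.05e-08 and 2.9e-05). The opposite strand of the longer region was at -0.82 ± 0.14 at 3 days (adjusted p = 0.000139).

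A drop that passed the threshold at both times, with no call between them, was seen in chr12:88172043-88172731 (reverse strand, 688 bases, 2 of 3 probes tested). It was at -2.66, -2.88, -2.81 and -2.03 in sham, -3.98, -3.74, -3.52, -4.27 and -3.68 at MI 3 days and -3.61, -4.08, -3.77, -3.80 and -2.96 at MI 14 days. Neither MI group overlapped with sham, and the change was -1.24 ± 0.23 (adjusted p = 0.000294) and -1.05 ± 0.23 (adjusted p = 0.00364), with 0.19 ± 0.22 between the times (adjusted p = 0.465). The 14-day call was lost with normexp (adjusted p = 0.135). In chr9:40268246-40268441 (reverse strand, 195 bases, 3 probes) the brightest probe was lower by -0.43 ± 0.10 at 14 days (adjusted p = 0.00575, but 0.118 with the slide as a block and 0.124 with normexp) and its dimmer probes by -1.03 and -1.21. chr3:148884650-148888709 (reverse strand, 4059 bases, 1 tested probe) was lower by -2.01 ± 0.27 at 3 days (adjusted p = 1.64e-05) and -1.10 ± 0.27 at 14 days (adjusted p = 0.00677). The brightest probe of chrX:98669962-98670424 (forward strand) was above background on no MI 14 days scanner array. It could enter the test only through sham or MI 3 days. By its bound the region was at least 1.33-fold lower than sham (adjusted p = 0.0342), a call lost in 10 of the alternatives. Beside it on the same strand, chrX:98671653-98672118 and chrX:98673447-98673874 were lower at both times, by -1.29 and -1.15 at 3 days and by -1.01 and -0.57 at 14 days (adjusted p = 2.93e-05, 2.41e-06, 0.00112 and 0.0038). By a single tested probe, chr1:167218236-167218418 (forward strand, 182 bases) was higher at 14 days by 1.06 ± 0.33 (adjusted p = 0.0236, a call lost in 4 of the alternatives). chr9:88333945-88342370 (forward strand, 8425 bases), above background on no sham scanner array, was at least 1.06-fold higher (adjusted p = 0.00369, and 0.372 with normexp), and at least 1.19-fold higher at 3 days (adjusted p = 0.000394). Its probe could enter the test only through an MI group.

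The third comparison, MI 14 days against MI 3 days, describes the change between the times. It shares no sham array, but shares each MI group with one of the other comparisons. By the brightest probe 502 regions were higher at 14 days (35.6%, against 32.7% of all tested probes) and 102 lower (7.24%, against 22.9%). The median change was 0.27, beside 0.13 over all tested probes and 0.28 over regions of 10 to 50 kb, of which 36.3% were higher and 8.28% lower. At 50 kb or more 31.0% were higher and 8.60% lower. In 345 regions (24.5%, against 40.0%) the arrays did not overlap, 92 rose at least 2-fold (6.53%, against 6.34%) and 36 fell at least 2-fold (2.56%, against 6.77%). Higher regions were 83.1% of those past the threshold and 65% with scaling by the array median, which gave 286 higher and 154 lower and moved the median of all probes by -0.20. With the slide as a block 241 were higher and 48 lower. The shares of all tested probes under these alternative settings are not given here. All 6 ventricular cardiomyocyte genes and all 3 adipocyte genes were higher at 14 than at 3 days, and all 5 macrophage and all 4 neutrophil genes were lower. Their part in the regions' changes was not tested.

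Of the regions higher at 14 days than at 3 days, chr2:77152807-77155092 (reverse strand, 2285 bases, 3 probes) went down and fully back. It was at 0.77, 0.65, 0.93 and 1.22 in sham, -0.66, -0.64, -0.98, -0.67 and -0.54 at MI 3 days and 0.88, 1.01, 1.21, 1.04 and 0.84 at MI 14 days. The MI 3 days arrays lay below both other groups, with -1.59 ± 0.12 at 3 days (adjusted p = 1.18e-07), 1.70 ± 0.12 between the times (adjusted p = 1e-07) and 0.10 ± 0.12 at 14 days (adjusted p = 0.558). chr2:77146893-77155643, which contains it on the same strand, has 5 tested probes, and 4 of them changed by -1.70 to -1.68 at 3 days and the brightest by -0.91. Its brightest probe had the smallest change of the 5. In chr17:32044823-32045974 (reverse strand, 1151 bases, 3 probes) the return was not shared by all arrays. Sham was at 2.33, 2.22, 2.12 and 2.38, MI 3 days at 0.72, 0.65, 0.65, 0.66 and 0.85, and MI 14 days at 2.35, 2.67, 1.17, 2.74 and 2.37. MI 14 days replicate 3 was the exception. The change between the times was 1.55 ± 0.23 with it (adjusted p = 6.65e-05), 1.82 without it (adjusted p = 2.73e-08), and missed the threshold when the slide was a block (adjusted p = 0.0561).

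Regions that fell between the times had been higher at 3 days in the examples given here. In chr11:35810031-35810205 (forward strand, 174 bases, 1 probe) the level was 1.66, 1.63, 1.53 and 1.5 in sham, 3.40, 3.70, 3.71, 3.73 and 3.27 at MI 3 days and 1.93, 1.68, 1.58, 1.69 and 1.82 at MI 14 days. The MI 3 days arrays stood above the rest, with 1.98 ± 0.11 at 3 days (adjusted p = 6.66e-09) and -1.82 ± 0.10 between the times (adjusted p = 1.64e-08). chr6:112552041-112560067 (reverse strand, 8026 bases) was followed by only 1 of its 10 probes, which fell by 1.82 ± 0.33 between the times (adjusted p = 0.000352, but 0.0722 with the slide as a block and 0.488 with normexp). For chr1:138579972-138587381 (forward strand, 7409 bases, 1 probe), above background on no scanner array of sham and MI 14 days, MI 3 days was at least 2.04-fold above sham and at least 1.72-fold above MI 14 days (adjusted p = 9.6e-07 and 0.00533, the second 0.787 with normexp). Its probe could enter the test only through MI 3 days.

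Regions with a single tested probe also rose between the times. chr7:69005291-69007813 (reverse strand, 2522 bases) was at -3.03, -2.11, -1.58 and -2.70 in sham, -4.25, -4.62, -4.38, -4.37 and -3.65 at MI 3 days and -3.57, -2.94, -2.75, -1.24 and -2.04 at MI 14 days. The MI 3 days arrays lay below all others, and the other groups overlapped (1.75 ± 0.39 between the times, adjusted p = 0.00165, and 0.0604 with the slide as a block). chr9:114412295-114418384 (reverse strand, 6089 bases) rose by 1.61 ± 0.39 (adjusted p = 0.00297, and 0.101 with the slide as a block) and chr10:81589420-81591032 (reverse strand, 1612 bases) by 1.58 ± 0.35 (adjusted p = 0.00184), each after a fall at 3 days (-2.09 ± 0.41 and -1.28 ± 0.38, adjusted p = 0.000483 and 0.0084). chr17:25990279-25998670 (forward strand, 8391 bases, 1 of 5 probes tested) was above background on neither MI 3 days scanner array, and MI 14 days was at least 1.74-fold above MI 3 days (adjusted p = 0.000718, and 0.115 with the slide as a block). chr13:62152594-62153041 (reverse strand, 447 bases), also above background on neither MI 3 days scanner array, averaged -4.64 at MI 3 days and -3.90 at MI 14 days (adjusted p = 0.0165, a call lost in 3 of the alternatives), with overlapping arrays. Its floor, known for only 2 of the 5 MI 3 days arrays, lay below the mean of all 5, so it gave no valid bound. The same holds for chrX:92119889-92128492 (reverse strand, 8603 bases), whose brightest probe was above background on neither MI 3 days scanner array. Its means were -3.19 in sham, -4.55 at MI 3 days and -3.65 at MI 14 days (adjusted p = 4.22e-05 at 3 days and 0.00114 between the times, the latter lost in 2 of the alternatives), and its 2 tested probes differed in sign at 3 days.

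Read over the 3 groups, 538 regions (38.2%, beside 25.2% of all tested probes) passed the threshold in no comparison. Of the 618 regions lower at 3 days, 427 (69.1%, beside 69.8% for all tested probes lower at 3 days) rose again between the times, and 156 (25.2%, beside 41.8%) were also lower at 14 days. The commonest course was lower at 3 days, higher at 14 than at 3 days, and not past the threshold against sham at 14 days, with 305 regions (21.6%, beside 15.9% of all tested probes). Of the 150 regions higher at 3 days, 81 (54.0%, beside 74.5%) fell again and 62 (41.3%, beside 38.0%) were also higher at 14 days. In 30 regions (2.13%, beside 2.4% of all tested probes) the rise against sham passed the threshold at 14 days only, and 24 of these were also higher at 14 than at 3 days. The comparisons share their sham arrays, so these counts are not independent of each other.

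Probes of a region were compared where 2 or more could be tested, in 728 regions. At 3 days all tested probes were past the threshold in the same direction in 249 of them. All were lower in 193 (26.5%, beside 28.3% of RefSeq-named genes with 2 or more tested probes) and all higher in 56 (7.69%, beside 20.9%). At 14 days all were lower in 37 (5.08%, beside 14.1%) and all higher in 31 (4.26%, beside 8.62%), and between the times in 36 (4.95%, beside 18.2%) and 143 (19.6%, beside 21.4%). Without sham replicate 1, sham replicate 2 or MI 14 days replicate 4, the 37 regions were 20, 22 and 24, so that count rests on single arrays. The median range of change between the probes of a region at 3 days was 0.36, beside 0.31 for RefSeq-named genes, and the largest was 4.81. The probes had the same sign in 76.5% of regions at 3 days and in 62.6% at 14 days, beside 78.4% and 74.3% of the genes. Regions and genes were not matched for the number of tested probes.

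Some regions had probes past the threshold in opposite directions: 23 at 3 days (3.16%, beside 4.76% of such genes, 6.43% of regions of 10 to 50 kb and 9.88% of longer ones), 4 at 14 days (0.549%, beside 0.608% of such genes) and 10 between the times (1.37%, beside 3.07%). A region with opposite calls has no single direction. More tested probes give more ways to hold opposite calls, and these shares were not matched for the number of probes. In chr2:60038543-60046318 (reverse strand, 7775 bases, 7 tested probes) the brightest probe was at -0.48, -0.67, -0.91 and -0.58 in sham and at -1.71, -1.73, -1.75, -1.97 and -1.66 at MI 3 days, a change of -1.11 ± 0.11 (adjusted p = 7.98e-07). Another of its probes rose by 0.78 ± 0.19 (adjusted p = 0.0023), and the other 5 were not past the threshold. In chr2:151343784-151344246 (forward strand, 462 bases) 2 probes changed by 1.09 ± 0.31 (adjusted p = 0.00636, but 0.0903 with the slide as a block and 0.632 with normexp) and -1.08 ± 0.25 at 3 days (adjusted p = 0.00177). In chr6:100518251-100519726 (reverse strand, 1475 bases) the probes were at -0.62 ± 0.21 and 0.55 ± 0.16 at 14 days (adjusted p = 0.0371 and 0.0183). The call of the brightest probe, the lower one, was lost in 13 of the 26 alternatives, so the opposite directions depend on the setting. Without MI 14 days replicate 3 that probe was at -0.48 (adjusted p = 0.0826).

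chr16:4867322-4874772 (forward strand, 7450 bases) had 3 of 10 probes tested, and at 3 days 2 were lower and the third was not past the threshold. At 14 days one was higher by 0.98 ± 0.26 (adjusted p = 0.0118) and another was at -0.42 ± 0.14 (adjusted p = 0.0385). On the opposite strand, chr16:4871449-4874336, which overlaps it, was higher at 14 days by 0.78 (adjusted p = 0.000335), and the full opposite strand was lower at 3 days (-1.10, adjusted p = 1e-05). In chr3:95502970-95503399 (reverse strand, 429 bases) the brightest probe was at -0.73, -0.45, -0.55 and -0.21 in sham, -0.42, -0.01, -0.57, -0.18 and -0.05 at MI 3 days and 0.89, 0.87, 1.57, 0.96 and 0.45 at MI 14 days. Its MI 14 days arrays lay above all others (1.44 ± 0.19 against sham, adjusted p = 0.000152, and 1.19 ± 0.18 between the times). The other tested probe was at -0.10 ± 0.15 against sham (adjusted p = 0.64) and at -0.60 ± 0.14 between the times (adjusted p = 0.00287). Other regions of this kind were chr12:110845020-110850870 (reverse strand, 3 tested probes at 3 days, from -0.89 to one at least 1.65-fold higher that was above background on no sham scanner array), chr4:128727332-128735227 (forward strand, 4 tested probes, -0.48 to 1.57 at 14 days) and chr2:60581618-60589907 (forward strand, 4 tested probes, -0.52 to 0.66 between the times).

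**Figure D4:**
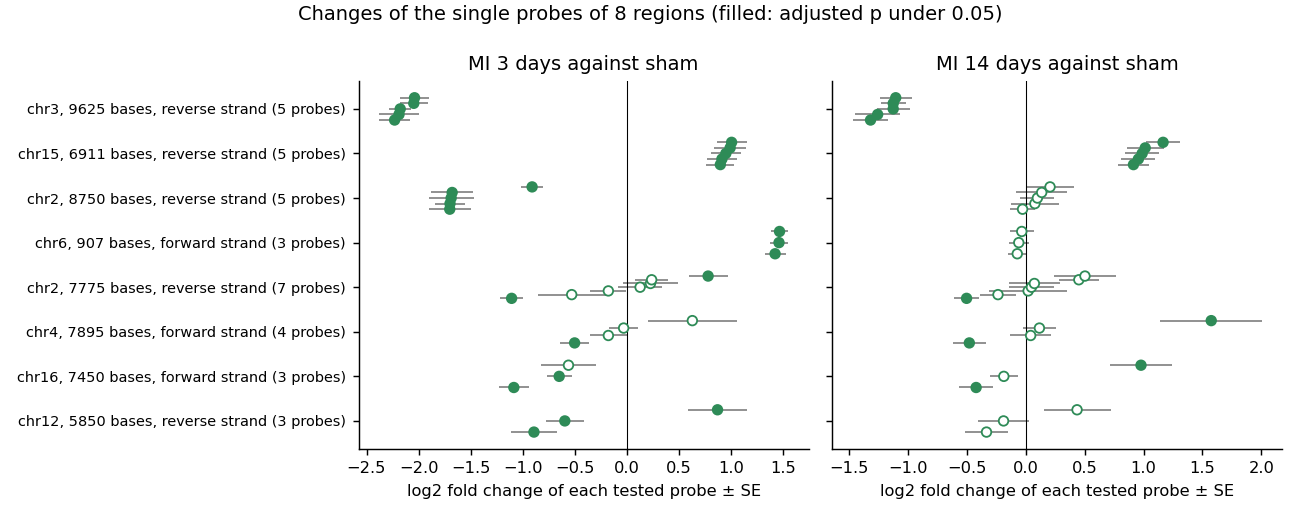
Log2 fold change ± SE of each tested probe of 8 regions at MI 3 days and MI 14 days against sham; filled points passed an adjusted p of 0.05, and fitted values are drawn also where a probe was at background in 1 group. At 3 days the 8750-base region has 1 probe at -0.91 beside 4 from -1.70 to -1.68, the probes of the other 3 regions at the top lie close together, and the lower 4 regions have probes on both sides of 0 in at least 1 comparison.

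Both strands were probed at 235 coordinates. Both could be tested at 137, the forward strand alone at 38, the reverse alone at 42 and neither at 18. At 3 days both strands passed the threshold in the same direction at 30 coordinates, lower at 25 and higher at 5, in opposite directions at 5, and 1 strand alone passed at 73. Among all tested short regions 43.9% were lower and 10.6% higher, so some strands agree without any link. The number that would agree in that way was not worked out, and these counts show no link by themselves. The median difference between the strands was 0.43. The largest joint rise, at chr17:35080914-35090009 (9095 bases), was 2.21 ± 0.17 on the forward strand (5 tested probes, adjusted p = 8.09e-08) and 2.15 ± 0.16 on the reverse strand (7 tested probes, adjusted p = 9.42e-08), and it is named here after its values were seen.

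Among coordinates with opposite strands, chr13:90247709-90253992 (6283 bases) had the widest gap. The forward strand was at -4.61, -3.59, -6.20 and -5.46 in sham and -3.92, -3.23, -3.03, -3.32 and -3.33 at MI 3 days, higher by 1.60 ± 0.41 (adjusted p = 0.00371, and 0.253 with normexp) with overlapping arrays. The reverse strand was at -0.99, -0.89, -1.09 and -1.11 in sham and -1.79, -1.96, -2.67, -2.50 and -2.23 at MI 3 days, lower by -1.21 ± 0.21 (adjusted p = 0.000192) with no overlap. Each strand had 1 tested probe. At chr13:19611679-19620954 the forward strand was higher by 1.36 ± 0.52 (adjusted p = 0.0322, a call lost in 11 of the alternatives) and the reverse strand at least 1.81-fold lower (adjusted p = 0.00671), since its probe was above background on neither MI 3 days scanner array. With normexp the reverse strand's adjusted p was 0.0764. At chr9:56910620-56919495 the forward strand was higher by 0.83 ± 0.18 (adjusted p = 0.00133, a call lost in 3 of the alternatives) and the reverse lower by -1.29 ± 0.23 (adjusted p = 0.000203), and both moved back between the times (-0.81 ± 0.17 and 0.96 ± 0.22, adjusted p = 0.00138 and 0.0018). The other coordinates were chr12:103151385-103157796 (-0.59 forward and 0.38 reverse) and chr8:119090566-119097735 (-0.41 and 0.36), named after their values were seen. The latter was also the only one with opposite strands past the threshold at 14 days (-0.43 and 0.60, adjusted p = 0.0107 and 0.00075).

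**Figure D5:**
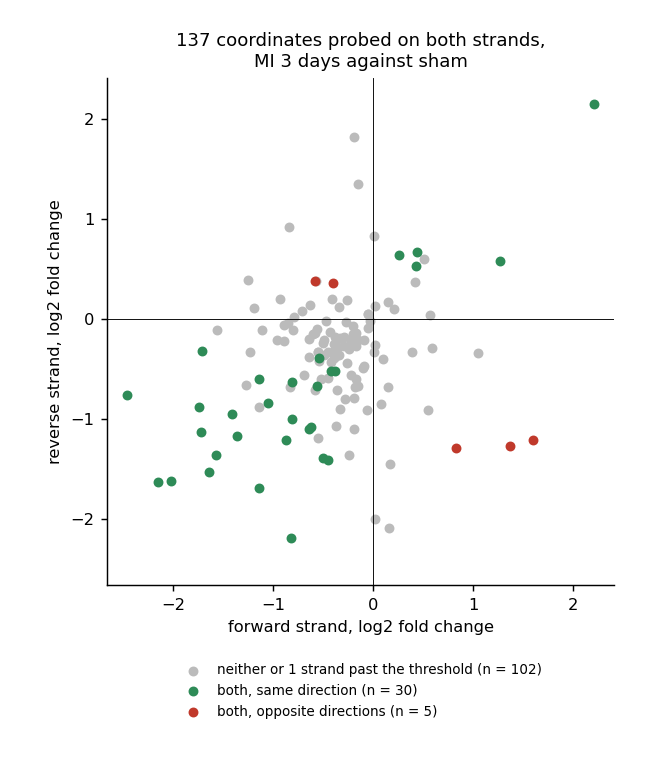
Log2 fold change at MI 3 days against sham of the forward strand (horizontal) and the reverse strand (vertical) at the 137 coordinates where both strands were tested. Green points passed the threshold in the same direction (30), red points in opposite directions (5), and grey points on 1 strand or neither (102).

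Short regions often lie on or near each other. Another lincRNA region overlapped 1104 of the 2199 on the same strand and 1386 on the opposite strand, and 758 overlapped none. Of 144 pairs of tested short regions that overlap on the same strand, both passed the threshold in the same direction at 3 days in 47 and in opposite directions in 3. Of 342 pairs on the same strand lying apart within 50000 bases, the counts were 91 and 16, and of 213 such pairs on opposite strands 54 and 16. These are counts of pairs that share regions and in part transcripts, and they carry no test. The numbers to be had from the shares of single regions alone were not worked out.

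By length, 53.2% of the regions under 500 bases could be tested and 71.8% of those of 5000 to 10000 bases. At 3 days the share higher was 6.59% under 500 bases, 12.2% at 500 to 1000, 13.5% at 1000 to 2000, 15.2% at 2000 to 5000 and 8.88% at 5000 to 10000 bases, and the share lower lay between 42.2% and 46.9% in all 5 classes. By level, the quartile of all tested probes with the lowest mean held 533 of the regions and the brightest quartile 91. In each quartile fewer regions than probes were higher at 3 days, from 9.38% beside 18.0% in the dimmest to 14.3% beside 30.2% in the brightest, and more were lower, from 37.3% beside 35.0% to 50.5% beside 45.0%. By chromosome, the share past the threshold at 3 days was 44.1% on chromosome 15 to 69.0% on chromosome 19, where 28 of 42 tested regions were lower and 1 was higher. These are the extremes of all chromosomes, beside 43.9% lower and 10.6% higher over all tested short regions. The share of all tested probes on each chromosome was not worked out, so neither extreme is read as a trait of the regions. Regions of the 2 directions were alike in strand, with 54.0% of those higher and 51.9% of those lower on the forward strand.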

How the data were processed

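Expression was measured on 14 Agilent 1-colour arrays. The deposited value table gives each probe's intensity in the Cy3 channel on a linear scale. On the 10 arrays with scanner files, probes with a single spot equalled the scanner software's processed signal within 1e-05. No scaling between these arrays was therefore applied in the value table. The other arrays could not be checked in this way. The scanner files were made with Agilent Feature Extraction 10.7.3.1 on a design placed on mm9, per the file headers, and hold 0 or 1 flags for detection, with no saturated probe. The submitters' processing notes name limma with no version, and its role is not given in the sources used here. Of the scanner files' noncontrol probes, 199 were not in the table, 20 of them of short lincRNA regions.

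From the deposited intensity, log2 minus the array's 75th percentile over noncontrol probes was computed. Probes were kept (32257) if some group had them detected, that is well above background, throughout its scanner arrays. A probe above background on no scanner array of a group could therefore enter only through another group, and its test is not independent of that entry. One model over the 3 groups was fitted (limma 3.58.1, R 4.3.3, functions lmFit and eBayes), two-sided, with Benjamini-Hochberg adjustment over all tested probes and a threshold of 0.05. The number of arrays limits the precision, and p-values measure the spread between samples that the labels list as replicates, which may in part be technical. On data simulated for MI 3 days against sham over 32257 probes, 94% of 100 probes with a log2 change of 2 and 78% of 100 with a change of 1 were recovered, with 12 false calls. Only these probes were changed there, and the noise was independent between probes. In the data 8219 probes were higher and 12821 lower at 3 days, so the simulated recovery and false calls do not carry over to them.

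Regions named are, per comparison, the 6 highest and 6 lowest among those with all probes past the threshold and no overlap, the 3 highest and lowest with 1 tested probe, the 3 largest lower bounds, and the 3 with probes in opposite directions. To these come the 6 brightest and the 3 strand pairs that differ most at 3 days. The members and lists were chosen with earlier results of these data known. Alternatives were array-median, tested-probe percentile and quantile scaling, no or a stricter filter, normexp (offset 50, on the median signals), scanner arrays alone, slide and replicate blocks, the 2 groups compared alone, the mean of a region's probes, regions under 5000 bases, each array left out, and non-uniform spots set to missing, the last chosen after seeing the data.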

Additional observations from a re-analysis of the deposited data

Results flagged for a closer look

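Among 213 sets of arrays of 1 group at a named region, 14 had 1 array far from the others, and chance gives about 1 in 20 such sets. In sham, replicate 3 was low at chr13:19611679-19620954 on the reverse strand (-3.99, others -3.70 to -3.64) and at chr1:167218236-167218418 (-5.31, others -4.01 to -3.74). It was high at chr2:31714946-31716972 (7.81, others 7.59 to 7.62) and at chr6:100518251-100519726 (-1.96, others -2.37 to -2.30). Sham replicate 1 was high at chr13:62152594-62153041 (-3.84), and sham replicate 2 at chr2:128217275-128217972 (-1.02).

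At MI 3 days, replicate 4 was low at chr2:60038543-60046318 (-1.97) and at chr4:148119487-148121143 (-6.18). MI 3 days replicate 3 was high at chr6:4841700-4847400 (2.01) and low at chr9:24307857-24309318 (-3.95). At MI 14 days, replicate 3 was low at chr17:32044823-32045974 (1.17, others 2.35 to 2.74) and replicate 2 at chr2:151343784-151344246 (-4.76). MI 14 days replicate 5 was low at chr5:44173484-44176009 (-5.40) and at chr6:149232359-149235295 (-5.07), where the probe was above background on few or no scanner arrays outside MI 3 days.

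In 8 regions (0.568%, beside 1.31% of all tested probes) the change against sham passed the threshold in opposite directions at 3 and at 14 days, and the difference between the times passed the threshold too (limma, adjusted over all tested probes). The change between the times was -1.67 at chr10:96103732-96103867 (forward strand, 0.93 at 3 days and -0.74 at 14 days). It was 1.35 at chr14:20894857-20902507 (reverse, -0.73 and 0.62), 1.15 at chr17:56687541-56694616 (reverse, -0.48 and 0.67) and 1.42 at chr8:48480224-48480698 (reverse, -1.11 and 0.31). It was 0.92 at chr18:36452279-36454825 (forward, -0.56 and 0.37) and 0.79 at chr19:5001448-5001810 (reverse, -0.42 and 0.38). A pair of forward-strand regions on chromosome 5, chr5:111565658-111566257 (0.91, from -0.54 and 0.37) and chr5:111602486-111603075 (0.95, from -0.37 and 0.58), had the same course. With the slide as a block the 14-day change of chr17:56687541-56694616 alone was still past the threshold (adjusted p = 0.0233).

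Probes of short regions that the scanner files hold and the value table does not were read on the scanner arrays. A probe of chr1:82895400-82897576 (forward strand) averaged -0.13 on the MI 3 days arrays (-0.18 to -0.08) and lay above sham on every array (-0.42 to -0.27). A probe of chr9:13349094-13352732 (forward strand) averaged -0.0752 at MI 3 days (-0.12 to -0.03) and 0.43 at MI 14 days (0.32 to 0.55), each above sham (-0.39 to -0.23). These differences were not tested.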

How the results depend on the processing

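Of the 91 changes of named regions, 2 turned under an alternative: with quantile normalization chr19:5801802-5802597 was at 0.31 and chr7:108209996-108216032 at 0.18 at 3 days. Calls lost numbered 28 with normexp, 19 with the slide as a block and 0 to 8 in each other alternative. Counts of regions past the threshold by the brightest probe are given as higher and lower, and then those with all probes past it. Shares of all tested probes under each alternative are not given here, so these counts do not compare the regions with all probes. With normexp on the scanner arrays, 63 were higher at 3 days, with all probes in 27 (higher) and 106 (lower). At 14 days it gave 57 and 96, with all probes in 13 and 12, and between the times 294 and 35, with 55 and 15. With the slide as a block 93 were higher at 3 days and 118 lower with all probes. At 14 days it gave 49 and 85, with 15 and 9, and between the times 241 and 48, with 45 and 20. On the scanner arrays alone, between the times, 55 were lower, and all probes were higher in 80 and lower in 22. Array-median scaling gave 122 lower with all probes at 3 days and 286 and 154 between the times, with 71 higher by all probes. The tested-probe percentile gave 108 lower at 14 days, with all probes in 20. Without the filter all probes were lower in 128 at 3 days, higher in 14 and lower in 14 at 14 days, and higher in 93 between the times. Regions under 5000 bases alone gave 410 lower at 3 days and 330 higher between the times, as fewer regions entered. The median change at 3 days was -0.19 with array-median scaling, -0.28 with quantile normalization, -0.27 with normexp and -0.44 with the slide as a block, and between the times 0.0692 with array-median scaling and 0.17 with quantile normalization. With 1 array left out, 3 days gave 134 to 156 and 538 to 632 (all probes 49 to 57 and 165 to 198, median -0.40 to -0.34). In turn 14 days gave 74 to 103 and 111 to 201 (22 to 32 and 20 to 40, median -0.14 to -0.06), and between the times 418 to 502 and 92 to 104 (117 to 142 and 33 to 39, median 0.24 to 0.31). Groups share replicate numbers, and deviations of same-numbered arrays correlated at -0.135 to 0.224 over 13 pairs. Without the values of differently numbered arrays beside them, these do not settle whether the numbers pair arrays. The main fit used no pairing. With the replicate block, 3 days gave 146 and 631 (53 and 191, median -0.39), 14 days 88 and 181 (28 and 41, median -0.11) and between the times 497 and 101 (143 and 36, median 0.27). The cause of these shifts was not tested. Of the 1409 tested regions, 681 rest on 1 tested probe, so no second tested probe could be compared there. Of all 2199 short regions, 310 had only 1 probe.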

Other observations

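Among coordinates probed on both strands, further joint declines at 3 days lay in regions not described above, and they were picked after their values were seen. At chr7:88668948-88678046 (9098 bases) the changes at 3 days were -2.02 ± 0.24 on the forward and -1.62 ± 0.21 on the reverse strand (limma, adjusted p = 4.9e-06 and 1.18e-05), and both strands rose again between the times, by 1.47 and 1.13 (adjusted p = 9e-05 and 0.000266). At chr6:31233512-31241062 (7550 bases) they were -1.64 ± 0.13 and -1.53 ± 0.30 (adjusted p = 9.15e-08 and 0.000429). The forward strand there went from 3.90 ± 0.10 in sham (SD, n = 4) to 2.25 ± 0.19 at MI 3 days (n = 5). At chr8:108153471-108159346 (5875 bases) they were -1.57 ± 0.22 and -1.36 ± 0.23 (adjusted p = 2.69e-05 and 0.000118), with rises of 0.79 and 0.96 between the times (adjusted p = 0.00558 and 0.00164). At chr16:23992037-24001037 (9000 bases) the strands fell unequally, the forward strand by -2.46 ± 0.13 (adjusted p = 6.17e-09), from 1.95 ± 0.25 in sham to -0.51 ± 0.20 at MI 3 days, and the reverse strand by -0.76 ± 0.15 (adjusted p = 0.00064). Both of its strands were still lower at 14 days (-1.29 and -0.42, adjusted p = 2.57e-05 and 0.0495).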
